A study of Mus musculus with 8 samples.

Results

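Fibronectin, vimentin and 7 further genes of the extracellular matrix were followed across sorted mouse cells that the labels call airway epithelial cells. Markers of alveolar, fibroblast and endothelial cells also had reads in these libraries, as given below. The 9 genes are Fn1, Vim, Sparc, Bgn, Timp2, Timp3, Dcn, Mgp and Eln, of 25124 gene symbols in the deposited table, and they stand for the non-collagen matrix and mesenchymal genes. They were picked by name, with earlier results of these data known. The split applied to them, into genes higher after allergen in both genotypes and genes higher in wild type alone, uses measured values. The contrasts of allergen with saline are therefore given below as a description of the 9 genes. All 9 passed the filter on low values, which keeps genes whose mean over all 8 libraries is 10 normalized counts or more, with means of 18.7 (Eln) to 101.7 (Timp3). In Mgp and Eln only the wild-type allergen group itself had a mean of 10 or more. Bgn had a mean of 117.5 in that group and means of 2.75 to 11.1 in the other groups. Mgp, Eln and Bgn thus passed through the group in which they were high.

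Cells were sorted by FACS from the lungs of C57BL/6 mice, and RNA was profiled in 4 groups of 2 libraries. The groups are STAT3-cKO given HDM (cKO HDM), STAT3-WT given HDM (WT HDM), STAT3-cKO given PBS (cKO PBS) and STAT3-WT given PBS (WT PBS). HDM is house dust mite, an allergen that provokes type 2 airway inflammation, and PBS is the saline vehicle. STAT3 is a transcription factor that cytokines of the IL-6 family switch on; STAT3-cKO mice lack it conditionally and STAT3-WT mice are their wild-type counterparts. The sources used here do not state the cells in which STAT3 was deleted, the driver of the deletion, how HDM was dosed or how old the mice were. The labels number the libraries of a group but do not tie them to separate animals, and every p-value below is set against the scatter of these libraries, part or all of which may be technical.

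The libraries held 232556 to 593200 reads. Both cKO PBS libraries were the shallowest, and a count of 0 there allows up to 4.88 and 3.81 normalized counts (3 reads). The 8 general epithelial markers summed to 1681 and 1615 normalized counts in cKO HDM, 1300 and 1421 in WT HDM, 1752 and 1750 in cKO PBS, and 1686 and 1720 in WT PBS. Club and ciliated cell markers were present in every library, 6 of 6 each, as were all 9 alveolar type 2 markers, which belong to the gas-exchange region. Stat3, the targeted gene, stood at 76.9 and 92.2 normalized counts in cKO HDM against 133.7 and 157.3 in WT HDM, and at 56.9 and 96.5 in cKO PBS against 75.8 and 40.9 in WT PBS. Its difference of cKO against WT did not pass under HDM (log2 difference -0.78 ± 0.39, limma adjusted p = 0.549) or under PBS (0.41 ± 0.39, limma adjusted p = 0.845), and genotypes are given as labelled.

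The extracellular matrix is the network of fibres and proteoglycans that surrounds and anchors cells. Fibronectin bridges cells to this network through integrins, elastin gives the lung its recoil, small leucine-rich proteoglycans such as biglycan and decorin bind collagen fibrils and growth factors, and the TIMP proteins inhibit the metalloproteinases that degrade matrix. In the lung most of these genes are expressed most highly by fibroblasts and other mesenchymal cells, though epithelial cells and macrophages can also make fibronectin. Vimentin, an intermediate filament protein, is a usual marker of mesenchymal cells. Allergen exposure is known to remodel the airway matrix in mice.

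The promoters of 4 members are shown because their levels followed different patterns: Timp2 passed the threshold in cKO, Sparc and Bgn in WT, and Vim tracked Sparc. Each is the 250 bases before the gene start in RefSeq (GRCm38.p6, the assembly of mm10), on the strand of the gene. The gene spans given below are from GENCODE, whose outermost start lies further upstream for Timp2, Sparc and Vim. Those windows therefore fall inside the spans, and the sequence before the GENCODE starts was not searched. Capitals mark matches, on either strand, to the TATA box (letters TATAAA), the CCAAT box and the GC box (letters GGGCGG). Timp2 lies at chr11:118355412-118355661 (minus strand), Sparc at chr11:55420081-55420330 (minus strand), Bgn at chrX:73483351-73483600 (plus strand) and Vim at chr2:13574061-13574310 (plus strand).
Timp2: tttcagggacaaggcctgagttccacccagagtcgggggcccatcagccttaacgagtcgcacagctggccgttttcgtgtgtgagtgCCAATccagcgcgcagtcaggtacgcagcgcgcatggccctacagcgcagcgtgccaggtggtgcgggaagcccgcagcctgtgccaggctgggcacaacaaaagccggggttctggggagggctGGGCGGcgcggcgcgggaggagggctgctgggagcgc
Sparc: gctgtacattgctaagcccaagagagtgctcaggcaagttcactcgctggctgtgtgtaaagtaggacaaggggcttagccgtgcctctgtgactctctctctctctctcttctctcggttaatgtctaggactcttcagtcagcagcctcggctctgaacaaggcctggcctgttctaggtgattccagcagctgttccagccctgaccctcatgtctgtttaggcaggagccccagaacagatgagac
Bgn: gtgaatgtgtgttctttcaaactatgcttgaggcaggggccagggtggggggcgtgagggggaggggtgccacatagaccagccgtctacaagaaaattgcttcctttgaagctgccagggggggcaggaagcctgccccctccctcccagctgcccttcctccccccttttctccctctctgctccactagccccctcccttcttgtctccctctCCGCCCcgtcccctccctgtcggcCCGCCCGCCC
Vim: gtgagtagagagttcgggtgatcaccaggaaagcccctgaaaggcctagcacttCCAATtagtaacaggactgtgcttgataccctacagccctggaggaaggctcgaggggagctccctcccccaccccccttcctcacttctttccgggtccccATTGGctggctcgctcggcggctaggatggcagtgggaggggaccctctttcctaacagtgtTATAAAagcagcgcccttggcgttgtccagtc

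The Vim window held TATAAA beginning 32 bases before the start and CCAAT at 196 and 94 bases before it, while the Timp2 window held CCAAT at 162 and GGGCGG at 37. The Bgn window held GGGCGG, all on the opposite strand, at 34, 10 and 6 bases, the last pair overlapping each other. Sparc held none of the motifs searched. The STAT motif TTCNNNGAA, the AP-1 motif TGANTCA and the CArG box were searched as well on both strands, and none was found in these windows or in that of Timp3, which held GGGCGG at 15. Of 32851 windows of the same length, 12.4% held TATAAA, 33.9% CCAAT, 32.7% GGGCGG, 7.02% the STAT motif, 6.75% the AP-1 motif and 1.47% the CArG box. These are matches of letters only. The RefSeq table held 5 of the 9 members.

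Fn1 (chromosome 1, 71585520 to 71653200, mm10, protein-coding) encodes fibronectin. It was measured at 95.1 and 97.2 normalized counts in cKO HDM, 129.8 and 95.4 in WT HDM, 8.13 and 6.35 in cKO PBS, and 7.65 and 10.9 in WT PBS. All 4 HDM libraries lay above all 4 PBS libraries, and the 2 genotypes overlapped within each treatment. Fn1 rose by 3.57 ± 0.52 on the log2(value + 1) scale in cKO and by 3.47 ± 0.52 in WT, each past the threshold of a limma adjusted p under 0.05. As a ratio of pooled reads this is 13.5-fold in cKO (95% counting interval 7.20 to 28.4) and 12.9-fold in WT (8.37 to 21.0). Counting intervals here and below cover counting error only. The difference of cKO against WT was -0.21 ± 0.52 under HDM (95% interval -1.32 to 0.90, limma adjusted p = 0.955) and -0.31 ± 0.52 under PBS (-1.42 to 0.80, limma adjusted p = 0.915). A small part of its exons overlaps an antisense gene, Apol7d, which had 0 reads in every library.

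**Figure D1:**
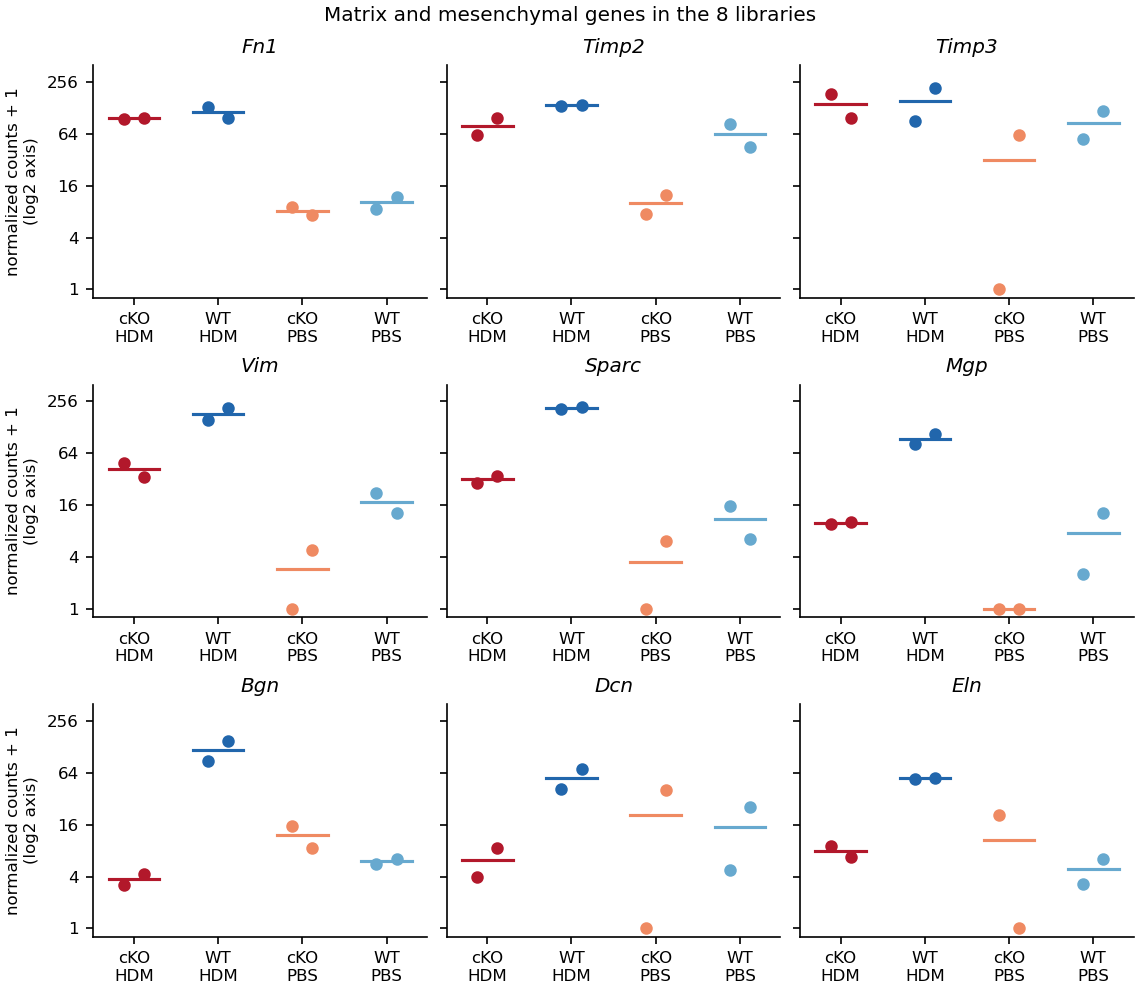
Normalized counts + 1 (log2 axis) of the 9 genes in each library, by group on the horizontal axis; points are libraries and lines are group means. Fn1 is as high in cKO HDM as in WT HDM, whereas Bgn, at 2.18 and 3.32 in cKO HDM, lies above 86 in WT HDM alone.

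Vim (chromosome 2, 13573927 to 13582826) stood at 48.6 and 33.2 normalized counts in cKO HDM, 154.6 and 211.4 in WT HDM, 0 and 3.81 in cKO PBS, and 21.4 and 11.8 in WT PBS. Within each genotype both HDM libraries lay above both PBS libraries, and within each treatment both cKO libraries lay below both WT libraries. The log2 difference of HDM against PBS was 4.23 ± 0.75 in cKO and 3.42 ± 0.75 in WT, and neither passed. Only 3 reads were counted in the cKO PBS libraries together, which gives a ratio of 19.4-fold with a counting interval of 6.45 to 95.4. Between genotypes the difference was -2.14 ± 0.75 under HDM (limma adjusted p = 0.328) and -2.95 ± 0.75 under PBS (limma adjusted p = 0.659).

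Sparc (chromosome 11, 55394500 to 55423183) encodes osteonectin, a calcium-binding matricellular protein that takes part in collagen assembly. Its level was 27.6 and 34.1 normalized counts in cKO HDM, 208.0 and 220.5 in WT HDM, 0 and 5.08 in cKO PBS, and 14.5 and 5.46 in WT PBS. The WT HDM libraries lay several-fold above all others, and the cKO HDM libraries came next, above every PBS library. The HDM difference was 4.42 ± 0.83 in WT, past the threshold, and 3.68 ± 0.83 in cKO, which did not pass. The levels of cKO HDM were lower than those of WT HDM by 6.94-fold in pooled reads (counting interval 5.46 to 8.91). On the log scale that difference was -2.77 ± 0.83, with a 95% interval of -4.53 to -1.005, and it did not pass (limma adjusted p = 0.194). The interaction, which tests the responses of both genotypes against each other, was -0.74 ± 1.17 (limma adjusted p = 0.883), so the pass in WT and the miss in cKO do not amount to a measured difference in response.

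Bgn (chromosome X, 73483602 to 73495933) encodes biglycan, a small leucine-rich proteoglycan that binds collagen and TGF-beta. It had 2.18 and 3.32 normalized counts in cKO HDM (3 and 4 reads), 86.7 and 148.3 in WT HDM (133 and 115 reads), 14.6 and 7.62 in cKO PBS, and 4.59 and 5.46 in WT PBS. Both cKO HDM libraries held the lowest levels of the 8, below both cKO PBS libraries, while both WT HDM libraries were far above the rest. The HDM difference was -1.65 ± 0.87 in cKO, which did not pass, and 4.25 ± 0.87 in WT, which did. Bgn was lower in cKO HDM than in WT HDM, with a log2 difference of -4.95 ± 0.87 and a 95% interval of -6.80 to -3.10 (limma adjusted p = 0.0153). In pooled reads Bgn was 39.6-fold lower (counting interval 18.9 to 99.6, from 7 and 248 reads). That comparison shares the HDM libraries with the split, and Bgn passed the filter through WT HDM, so the call is a description. The call was lost without any 1 of the 4 HDM libraries. Under PBS the difference of cKO against WT was 0.95 ± 0.87 (limma adjusted p = 0.837). The interaction was -5.90 ± 1.23, with a 95% interval of -8.51 to -3.29. It did not pass with limma (adjusted p = 0.155), and edgeR and DESeq2 did call it. The interaction is built from the contrasts that define the split, so it is a description and nothing is drawn from it.

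Dcn (chromosome 10, 97479609 to 97518143), decorin, is the closest relative of biglycan in the set. Its level was 2.90 and 7.48 normalized counts in cKO HDM, 40.4 and 69.6 in WT HDM, 0 and 39.4 in cKO PBS, and 3.83 and 24.6 in WT PBS. The 2 PBS groups were each widely split, and cKO PBS overlapped cKO HDM. The HDM difference was -0.14 ± 1.40 in cKO and 2.28 ± 1.40 in WT, neither past the threshold, and that in cKO changes sign with the cKO PBS library used: -2.81 without the first and 2.52 without the second. In pooled reads the ratio was 0.23-fold in cKO (counting interval 0.11 to 0.45) and 3.78-fold in WT (2.54 to 5.78). The ratio in cKO is from 13 and 31 reads, and all 31 were in the second cKO PBS library. Under HDM the difference of cKO against WT was -3.23 ± 1.40 (95% interval -6.22 to -0.25, limma adjusted p = 0.476).

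Timp2 (chromosome 11, 118301069 to 118355740) encodes an inhibitor of metalloproteinases that also takes part in the activation of MMP2. It stood at 60.2 and 95.5 normalized counts in cKO HDM, 134.3 and 137.9 in WT HDM, 6.51 and 11.4 in cKO PBS, and 81.1 and 44.6 in WT PBS. The cKO PBS libraries were the lowest of the 8 by a wide margin, and the cKO HDM and WT PBS libraries overlapped. Timp2 rose in cKO, with an HDM difference of 2.99 ± 0.47, and had a difference of 1.16 ± 0.47 in WT, which did not pass. In pooled reads the ratio was 8.27-fold in cKO (counting interval 4.73 to 15.8) and 2.10-fold in WT (1.73 to 2.57). Under PBS the difference of cKO against WT was -2.66 ± 0.47 (95% interval -3.65 to -1.67), the smallest p among the 7512 genes tested there, and it did not pass (limma unadjusted p = 3.8e-05, adjusted p = 0.287). That difference was -2.30 without the first cKO PBS library and -3.03 without the second. The interaction was 1.83 ± 0.66 (limma adjusted p = 0.547).

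Timp3 (chromosome 10, 86300372 to 86349506), a matrix-bound inhibitor of metalloproteinases, had the widest spread between replicates of the 9 genes in normalized counts, in every group. It had 183.6 and 97.2 normalized counts in cKO HDM, 88.0 and 214.0 in WT HDM, 0 and 61.0 in cKO PBS, and 54.3 and 115.5 in WT PBS. The replicates of each group differed about as much as the groups did, except that the first cKO PBS library had no read. The HDM difference was 4.10 ± 1.19 in cKO and 0.79 ± 1.19 in WT, neither past the threshold. The value in cKO rests on that library: it was 1.12 without it and 7.07 without the other cKO PBS library. In pooled reads the ratio was 4.19-fold in cKO (counting interval 3.09 to 5.78) and 1.58-fold in WT (1.32 to 1.905). Under HDM the difference of cKO against WT was -0.04 ± 1.19, with a wide 95% interval of -2.58 to 2.50. Part of its exons, 21.3% of the bases, overlaps Syn3 on the opposite strand, which had at most 4.59 normalized counts in any library.

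Mgp (chromosome 6, 136872435 to 136875823) encodes matrix Gla protein, an inhibitor of calcification, and Eln (chromosome 5, 134702593 to 134747323) encodes elastin. Mgp had 8.71 and 9.14 normalized counts in cKO HDM, 81.5 and 105.7 in WT HDM, 0 in both cKO PBS libraries, and 1.53 and 11.8 in WT PBS. Eln had 7.98 and 5.81 in cKO HDM, 53.5 and 55.4 in WT HDM, 19.5 and 0 in cKO PBS, and 2.30 and 5.46 in WT PBS. For both genes the WT HDM libraries were the highest of the 8, with no overlap with any other group. Mgp in cKO HDM was at least 2.05-fold higher than in cKO PBS, with each cKO PBS library set to its floor of 3 reads, and Eln in cKO HDM overlapped cKO PBS. In WT the HDM differences were 4.04 ± 1.22 for Mgp and 3.59 ± 1.31 for Eln, and neither passed. Under HDM the difference of cKO against WT was -3.24 ± 1.22 for Mgp (limma adjusted p = 0.382) and -2.83 ± 1.31 for Eln (limma adjusted p = 0.516), which in pooled reads is 10.1-fold (counting interval 6.53 to 16.2) and 7.77-fold (4.72 to 13.5) lower.

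Counted by the threshold, 2 of 9 members (Fn1 and Timp2) rose with HDM in cKO, where 0.0532% of the 7512 genes tested rose. In WT 3 of 9 rose (Fn1, Sparc and Bgn), where 0.506% of genes did. Fn1 alone rose in both genotypes, 1 of 9 beside 0.0399% of genes. These shares are printed as background. The contrasts define the split and earlier results were known when the members were chosen, so nothing is read from the shares. The values just inside and just outside the threshold were 2.99 ± 0.47 (Timp2) and 4.23 ± 0.75 (Vim) in cKO, and 4.25 ± 0.87 (Bgn) and 3.42 ± 0.75 (Vim) in WT. By a looser description, a log2 difference of at least 1 with both HDM libraries above both PBS libraries, 6 of 9 members were higher in cKO (9.57% of genes), 8 of 9 in WT (9.38%) and 5 of 9 in both (1.53%). Under that description Vim, Sparc, Timp2 and Mgp join Fn1 as higher in both genotypes, Bgn, Dcn and Eln are higher in WT only, and Timp3 in cKO only. So Sparc is in WT alone by the threshold and in both genotypes by the looser rule, whereas Fn1 and Bgn keep their places under each. These are classes by rule, and no interaction of a member passed with limma. The 2 HDM contrasts share no library.

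**Figure D2:**
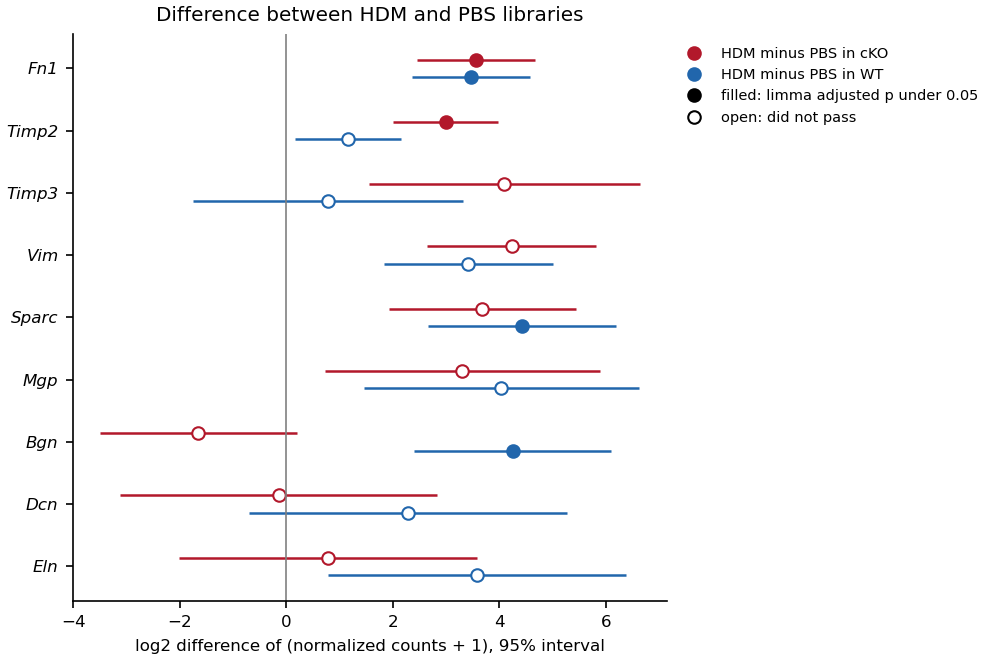
Log2 difference of HDM against PBS with its 95% interval for each gene, cKO above WT; filled points passed a limma adjusted p under 0.05. Fn1 passed in both genotypes, Timp2 in cKO, Sparc and Bgn in WT, and the cKO and WT values of Bgn lie on opposite sides of 0.

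The threshold calls depended on single libraries. A library outside a contrast does not enter its log2 difference, whereas leaving out one inside it also changes that difference. In cKO no member passed when any 1 of the 4 HDM libraries was left out, and only Fn1 passed when a WT PBS library was. Further members passed in cKO when either cKO PBS library was left out, and further genes outside the 9 as well. In WT no member passed when WT HDM library 1, WT HDM library 2 or WT PBS library 1 was left out. Only Fn1 passed in WT when WT PBS library 2 or a cKO HDM library was left out. Leaving out either cKO PBS library let further members pass in WT, and further genes outside the 9 as well. The log2 differences of Fn1 themselves ranged from 3.41 to 3.72 in cKO and from 3.24 to 3.70 in WT over these exclusions.

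Between genotypes under HDM, 1 of 9 members passed, Bgn, which was lower in cKO HDM, beside 0.519% of all genes tested. With no overlap between the libraries, 7 of 9 members were lower in cKO HDM (all but Fn1 and Timp3), beside 21.9% of genes. This comparison uses the same HDM libraries as the contrasts that define the split, so a member called higher in WT alone is likely to be lower in cKO here as well. Bgn also passed the filter on low values through its WT HDM libraries. The call on Bgn was lost without any 1 of the 4 HDM libraries (limma adjusted p = 0.06 to 0.488, log2 difference -5.33 to -4.57) and held without any 1 PBS library. Leaving out a cKO PBS library let further members pass, and further genes outside the 9 as well.

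Under PBS 0 of 9 members passed for cKO against WT, and so did 0% of all genes tested with limma, edgeR or DESeq2, of which 523, 410 and 401 genes had an unadjusted p under 0.05. Lower in cKO PBS with no overlap were 4 of 9 members, Vim, Sparc, Timp2 and Mgp, beside 19.1% of genes. Without a cKO PBS library some members passed, and so did genes outside the 9. Leaving out 1 library, the difference ranged from -3.09 to -2.24 for Timp2 and from -4.08 to -1.82 for Vim. It ranged from -3.32 to -0.72 for Sparc and from -6.33 to -0.37 for Timp3. Of the interactions, 0 of 9 passed with limma, beside 0.0266% of genes, 2 of 7512, with 584 genes at an unadjusted p under 0.05. edgeR and DESeq2 each called 1 member, Bgn. Since the interaction is built from the HDM contrasts that define the split, its calls on members lend no support.

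**Figure D3:**
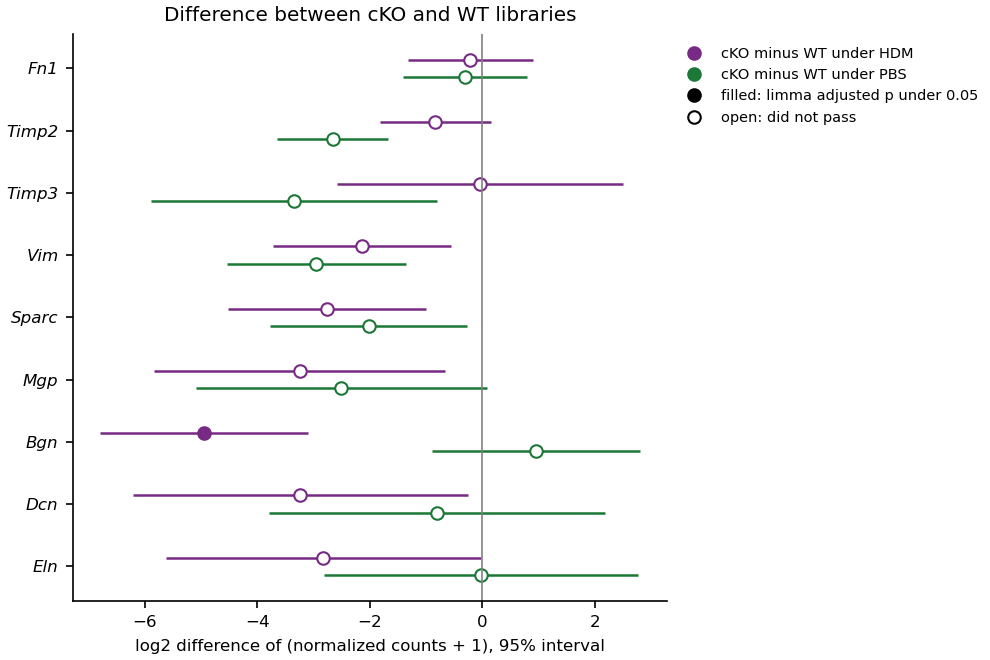
Log2 difference of cKO against WT with its 95% interval for each gene, under HDM above PBS; the filled point passed a limma adjusted p under 0.05. Bgn under HDM is the one value that passed, the Fn1 values lie near 0 in both treatments, and Timp2 stands at -2.66 under PBS.

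Levels can be set beside each other between genes only per length, here as normalized counts per kilobase of merged exons. In cKO HDM the means ran from Timp2 (20.0) and Timp3 (17.2) through Vim (8.63), Fn1 (8.23), Sparc (8.13) and Mgp (7.52) to Dcn (0.89), Eln (0.85) and Bgn (0.45). In WT HDM the order was Mgp (78.9), Sparc (56.6), Vim (38.6), Timp2 (34.9), Bgn (19.3), Timp3 (18.5), Fn1 (9.64), Dcn (9.43) and Eln (6.72). Mgp and Sparc thus stood first per length in WT HDM, with no overlap between their libraries or with Vim. In cKO HDM the metalloproteinase inhibitors led, and their libraries overlapped each other and lay above those of the next 4. Neighbours whose libraries overlapped in WT HDM were Vim and Timp2, Bgn and Timp3, Timp3 and Fn1, and Fn1 and Dcn.

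Summed over the 9 members, the libraries held 436.9 and 382.9 normalized counts in cKO HDM, 976.9 and 1258 in WT HDM, 48.8 and 134.6 in cKO PBS, and 191.4 and 235.5 in WT PBS. No member was at 0 in the HDM or WT PBS libraries. In cKO PBS 5 members were at 0 in the first library (Vim, Sparc, Timp3, Dcn and Mgp) and 2 in the second (Mgp and Eln). In these bulk libraries fewer cells of a type and less RNA per cell cannot be told apart.

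Summed markers of some other cell types moved with several members. The 15 fibroblast markers, none of them a member, summed to 125.5 and 114.6 normalized counts in cKO HDM, 1428 and 1400 in WT HDM, 35.8 and 90.2 in cKO PBS, and 63.5 and 105.5 in WT PBS. Of the 7 tested, the fibrillar collagen genes Col1a1, Col1a2 and Col3a1 rose in WT, where 0.506% of all genes tested rose. The same 3 were lower in cKO HDM than in WT HDM, as were 0.519% of genes. None of the 7 passed for HDM against PBS in cKO. The medians of the 7 were 1.28 for HDM against PBS in cKO (6 of 7 positive, all-gene median 0.10), 4.12 for HDM against PBS in WT and -3.55 for cKO against WT under HDM. In cKO HDM 8 and 9 of the 15 had a read, and Thy1, Col13a1, Dpt and Scara5 had none in either library, against 15 and 11 with a read in WT HDM. The 19 endothelial markers summed to 265.6 and 298.2 in cKO HDM, 1348 and 1448 in WT HDM, 385.5 and 281.9 in cKO PBS, and 312.3 and 298.3 in WT PBS. Of the 14 endothelial markers tested, all were positive for HDM against PBS in WT (median 2.34), and Vwf and Calcrl passed. Cdh5, Calcrl and Acvrl1 were lower in cKO HDM than in WT HDM. The 11 smooth muscle and pericyte markers summed to 23.2 and 16.6 in cKO HDM, 103.0 and 162.4 in WT HDM, 22.8 and 29.2 in cKO PBS, and 34.4 and 27.3 in WT PBS, with Cspg4 at 0 throughout. Only 1 of the 11 was high enough to be tested. Its log2 difference of HDM against PBS was negative, -1.15 in WT and -1.37 in cKO, and did not pass. The part of fibroblasts, endothelial cells, smooth muscle cells and pericytes in the levels of the 9 members was not tested.

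The 15 macrophage markers, most of whose sum is Lyz2, a gene that alveolar type 2 cells also express, summed to 404.2 and 438.5 in cKO HDM, 1233 and 2185 in WT HDM, 507.5 and 642.6 in cKO PBS, and 414.9 and 783.9 in WT PBS. Of the 15, 4 and 4 had a read in cKO HDM, 11 and 13 in WT HDM, 3 and 3 in cKO PBS, and 4 and 3 in WT PBS. Among the markers with no read in any cKO HDM or cKO PBS library were Cd68, Marco, Adgre1 and Csf1r. The 9 alveolar type 2 markers summed to 4769 and 5199 in cKO HDM, 10154 and 15008 in WT HDM, 5114 and 5896 in cKO PBS, and 4362 and 6117 in WT PBS. Of these 9 markers 4 rose in WT, beside 0.506% of all genes. Between genotypes 5 were lower in cKO HDM than in WT HDM, beside 0.519% of genes. The part of these cells in the levels of Fn1 and the other members was not tested in either genotype.

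The 5 erythroid markers summed to 13.1 and 3.32 normalized counts in cKO HDM against 229 and 424 in WT HDM, with 22.8 and 30.5 in cKO PBS and 24.5 and 36.4 in WT PBS. Of the 3 erythroid markers tested, Hba-a1 and Hba-a2 were lower in cKO HDM than in WT HDM, beside 0.519% of all genes. The 14 lymphocyte and granulocyte markers, with Cd3d, Cd8a, Epx and Prg2 at 0 throughout, reached 141.8 in WT HDM and at most 17.9 in any other group. The 5 platelet and the 4 basal cell markers stayed at or below 30.9 and 14.6 in every library. Mesothelial markers (5 genes) summed to 22.5 and 18.3 in cKO HDM, 58.7 and 51.6 in WT HDM, 22.8 and 67.3 in cKO PBS, and 32.1 and 67.3 in WT PBS. Alveolar type 1 markers (8 genes) summed to 382.4 and 534.9 in cKO HDM, 651.5 and 651.1 in WT HDM, 380.6 and 530.8 in cKO PBS, and 431.0 and 442.0 in WT PBS.

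**Figure D4:**
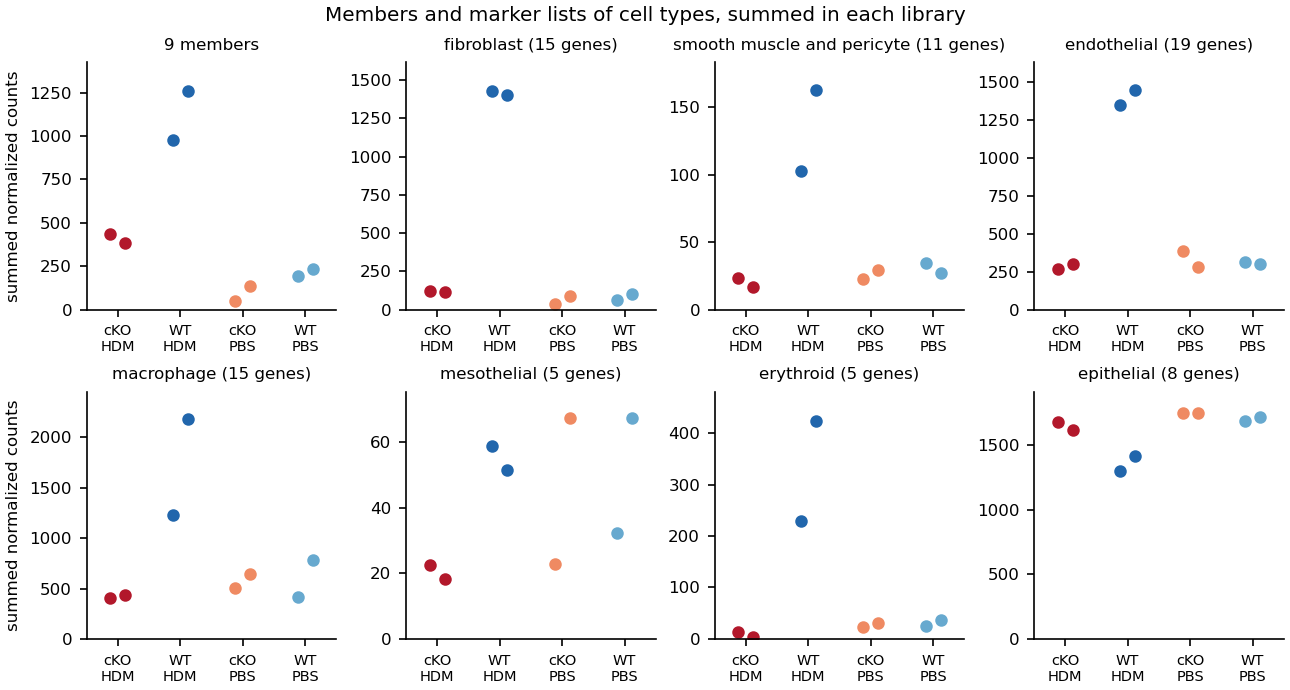
Summed normalized counts of the 9 matrix genes and of 7 marker lists in each library (points), by group; vertical axes start at 0 and differ between panels. The fibroblast and endothelial sums, like the erythroid and smooth muscle sums, are high in the 2 WT HDM libraries, while the epithelial sum is lowest there.

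Genes that act with the members were read from 7 lists. Of 8 fibronectin receptor genes tested (of 14 listed), 0 passed in any comparison. Cd44, a hyaluronan receptor, had the smallest p there: it stood at 49.3 and 44.0 normalized counts in cKO HDM against 88.7 and 89.0 in WT HDM (log2 difference -0.92 ± 0.45, limma adjusted p = 0.539). Itgb5, an integrin chain, stood at -1.13 ± 0.72 (limma adjusted p = 0.665). The list's median difference of cKO against WT under HDM was -0.41, against 0.02 over all genes tested.

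Of 14 proteases tested (of 33 listed) 0 passed. Under HDM their median was -0.83. Adam19, a membrane disintegrin and metalloproteinase, stood at 11.6 and 8.31 normalized counts in cKO HDM against 78.3 and 52.9 in WT HDM (-2.59 ± 0.61, limma adjusted p = 0.0912). Mmp14, the membrane-type metalloproteinase that cleaves pro-MMP2 together with Timp2, stood at 13.1 and 3.32 in cKO HDM against 51.5 and 49.0 in WT HDM (-2.72 ± 0.79, limma adjusted p = 0.180). Mmp2 itself was too low to be tested, with 2.18 and 0 in cKO HDM against 23.5 and 43.8 in WT HDM. Of the other inhibitors 2 of 8 were tested, Cst3 (-0.65 ± 0.47) and Serpine2 (0.10 ± 0.42), and neither passed. Timp1, the family member usually induced in inflammation, had no read in cKO HDM, cKO PBS or WT PBS and 10.4 and 15.5 normalized counts in WT HDM.

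Among 10 tested proteoglycan and matricellular genes (of 26 listed, Ctgf and Cyr61 not found under those symbols) Thbs1 passed. Thbs1, thrombospondin 1, an activator of latent TGF-beta, stood at 58.8 and 42.4 normalized counts in cKO HDM, 174.8 and 198.5 in WT HDM, 34.2 and 55.9 in cKO PBS, and 35.2 and 48.2 in WT PBS. The WT HDM libraries were alone in being high. Thbs1 rose by 2.15 ± 0.40 in WT (limma adjusted p = 0.0247), stood at 0.19 ± 0.40 in cKO, and fell in cKO HDM relative to WT HDM (-1.88 ± 0.40, limma adjusted p = 0.0473). The pass in WT was lost without any 1 WT or cKO HDM library or WT PBS library (limma adjusted p = 0.0512 to 0.428), as was the pass between genotypes (0.092 to 0.507), and both held without either cKO PBS library. The interaction of Thbs1 did not pass (-1.96 ± 0.56, limma adjusted p = 0.431). Sparcl1, a relative of Sparc, had 7.98 and 15.8 in cKO HDM against 99.8 and 90.2 in WT HDM, 0 in both cKO PBS libraries, and did not pass (-2.97 ± 1.05, limma adjusted p = 0.335). The list's median under HDM was -1.93.

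Elastic fibre and crosslinking genes, 7 tested of 22, had a median of -2.09 for cKO against WT under HDM, and 0 passed. Ltbp4, a latent TGF-beta binding protein needed for elastic fibre assembly, stood at 10.9 and 10.8 in cKO HDM against 54.1 and 45.1 in WT HDM (-2.09 ± 0.66, limma adjusted p = 0.242), and Tgm2, a crosslinking transglutaminase, at -0.98 ± 0.40 (limma adjusted p = 0.446). Of the TGF-beta pathway 12 of 15 genes were tested and 0 passed, with a median of -0.92. Eng, an endothelial co-receptor, stood at -3.21 ± 1.17 (limma adjusted p = 0.354) and Ski, a repressor of SMAD signalling, at -1.38 ± 0.54 (limma adjusted p = 0.418).

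Regulators of mesenchymal transition were mostly too low to be tested. Of 17 genes listed 2 were tested, the intermediate filament gene Nes (-2.44 ± 1.25 for cKO against WT under HDM, limma adjusted p = 0.562) and S100a6 (0.24 ± 0.57, limma adjusted p = 0.955). Snai1, Snai2, Twist2 and Prrx1 had 0 reads in every library. Zeb1 had 4.35 and 9.14 normalized counts in cKO HDM, 24.1 and 7.74 in WT HDM, and at most 5.36 in any PBS library. The smooth muscle actin gene Acta2 had 1.45 and 0.83 in cKO HDM against 24.1 and 23.2 in WT HDM. None of the 7 lists held a gene that passed for HDM against PBS in cKO, where their medians were -0.60 to 0.65 against 0.10 over all genes tested. In WT the medians were 0.28 to 1.997 against -0.03 over all genes.

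Likeness of pattern was measured as Pearson's r of log2(value + 1) over the 8 libraries, which share depth and group structure, and is a description. The genes most like Fn1 were Chia1 (0.953), H2-D1 (0.951), Pla2g4c (0.950), Psmd3 (0.948) and Hspd1 (0.946), and no other member came above 0.828 (Sparc). Those most like Timp2 were Tiprl (0.988), Ahr (0.975), Gtf3c2 (0.974), Plxdc2 (0.971) and Ddx47 (0.970). Sparc was closest to Lrch1 (0.980), Vim (0.980), Lcn2 (0.962), Chil3 (0.960) and Chsy1 (0.958). Bgn was closest to Sema3c (0.979), Tek (0.957), Acvrl1 (0.956), Acly (0.955) and Cxcl15 (0.953), of which Tek and Acvrl1 are on the endothelial marker list and Cxcl15 on the alveolar type 2 list. Among the members, Sparc and Vim were the most alike of the pairs computed, and Bgn had r = 0.364 with Fn1 and 0.0339 with Timp3.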

How the data were processed

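Deposited values are signal, read counts after the authors' normalization, which the values show to be division by 1 size factor per library. The tools named are HOMER and DESeq2 and the build is mm10, per the submitters' processing notes. The aligner was not given in the sources used here, nor were versions, the annotation or any use of strand when counting, so reads of genes that overlap or are antisense to each other cannot be told apart. Libraries were made from 1 ng of total RNA with a directional kit, per the labels' protocols.

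Within a library 100% of the non-zero values were whole multiples of the smallest step (tolerance 0.01 reads), which recovered 232556 to 593200 reads per library. The values were analysed as log2(value + 1), and the 7512 genes with a mean of at least 10 were tested. limma 3.58.1 in R 4.3.3 was fitted to all 8 libraries with 1 mean per group and a variance trend. P-values are two-sided and adjusted by Benjamini-Hochberg over all genes tested, with a threshold of 0.05. Log2 differences on this scale can understate the change of low genes. Where 1 library of a group was at 0, they could also overstate it or differ in direction from pooled reads. For HDM against PBS in cKO, Timp3 had 4.10 beside a pooled ratio of 4.19-fold, and Eln 0.79 beside 0.81-fold. Errors after ± are standard errors on log2 differences. Ratios are of reads pooled over a group's 2 libraries per unit of size factor, with exact Clopper-Pearson intervals. There were 5 comparisons, namely HDM against PBS in cKO and in WT, cKO against WT under HDM and under PBS, and the interaction.

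Alternatives were other pseudocounts, filters, scalings and variance models, a replicate block, each library left out, only the groups compared, and edgeR 4.0.16 and DESeq2 1.42.0 on the recovered reads. For HDM against PBS edgeR called 4 genes higher and 0 lower in cKO, and 56 higher and 3 lower in WT. For cKO against WT it called 5 higher and 49 lower under HDM and 0 under PBS, and in the interaction 7, all negative. The gene test was tried on simulated data. Gene positions are from GENCODE M21 (mm10), promoters from RefSeq (GRCm38.p6).

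The members, lists and tests were chosen with earlier results of these data known. Named list genes are those that passed in any comparison and the 2 of smallest p for cKO against WT under HDM in each list. The 5 genes most correlated with Fn1, Timp2, Sparc and Bgn are named as well, after the exclusion of symbols described with them. Mmp2, Timp1, Zeb1, Acta2 and the marker genes given by name were singled out after their values were seen.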

Additional observations from a re-analysis of the deposited data

Results flagged for a closer look

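Bgn was the 1 member whose libraries moved in opposite directions in the 2 genotypes. Both cKO HDM libraries (2.18 and 3.32 normalized counts) lay below both cKO PBS libraries (14.6 and 7.62), and both WT HDM libraries (86.7 and 148.3) lay above both WT PBS libraries (4.59 and 5.46). The interaction was -5.90 ± 1.23 on the log2 scale and did not pass with limma (adjusted p = 0.155). It ranged from -6.33 to -5.47 when 1 library was left out. It is built from the contrasts that define the split and is a description. The values in cKO rest on 3 and 4 reads under HDM and 9 and 6 reads under PBS.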

How the results depend on the processing

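Of 961 alternative values of the 9 members, 809 kept their direction and their side of the threshold, 65 newly passed, 47 no longer passed and 40 changed sign. The fit with a replicate block gave 2 members for HDM against PBS in cKO, 3 in WT, 1 for cKO against WT under HDM, and 0 under PBS and in the interaction, the main counts. Deviations of libraries with the same replicate number were nearly uncorrelated between groups (-0.0164 to 0.0182). Counting error in shallow libraries pulls such correlations toward 0, so they do not decide whether libraries were paired. The block ended 1 named call, Thbs1 for cKO against WT under HDM (limma adjusted p = 0.0519).

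For HDM against PBS in cKO, 2 members became 0 with a pseudocount of 0.2, no filter, no variance trend or only the groups compared, 4 with DESeq2, and 0 to 5 leaving out 1 library. In WT 3 became 5 with a pseudocount of 5, quantile normalization or edgeR with either scaling, 6 with DESeq2 or only the groups compared, 1 with a pseudocount of 0.2, no filter or a minimum mean of 50 (which leaves Bgn, Dcn, Mgp and Eln untested), 0 without the variance trend, and 0 to 6 leaving out 1 library. For cKO against WT under HDM, 1 became 4 with a pseudocount of 5 or DESeq2, 0 with no filter, a minimum mean of 50 or no variance trend, 2 with quantile normalization or edgeR (TMM), 3 with edgeR (median of ratios), 6 with only the groups compared, and 0 to 4 leaving out 1 library. Under PBS leaving out 1 library gave 0 to 4. In the interaction 1 member, Bgn, passed with a pseudocount of 5, quantile normalization, edgeR with either scaling and DESeq2, and 0 to 3 leaving out 1 library. Bgn was called lower in cKO HDM under 15 of 21 alternatives. Counts over all genes ranged from 0 to 320 for HDM against PBS in cKO (4 with the main settings), 1 to 190 in WT (39), 0 to 142 for cKO against WT under HDM (43), 0 to 315 under PBS (0) and 0 to 115 in the interaction (2).

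Sign changes were among values that did not pass. HDM against PBS in cKO turned to 0.79 for Dcn with a pseudocount of 0.2, and for Eln to -0.18 (quantile), -0.41 (edgeR, TMM), -0.44 (edgeR, median of ratios) and -0.47 (DESeq2). Under PBS cKO against WT turned to 0.21 for Fn1 (quantile), to 0.58, 0.51, 0.53 and 0.50 for Dcn (quantile, edgeR with each scaling, DESeq2), and to 0.34, 1.19, 1.25, 1.27 and 1.31 for Eln (pseudocount of 5, then the same 4). The interaction turned to -0.39 for Fn1 (quantile), -0.37 and -0.21 for Vim (pseudocount of 5, quantile), 0.35 for Sparc (pseudocount of 0.2), and 1.16, 2.51, 2.47 and 1.22 for Mgp (pseudocount of 0.2, edgeR with each scaling, DESeq2). Leaving out 1 library, HDM against PBS in cKO ranged from -2.81 to 2.52 for Dcn, -1.39 to 2.97 for Eln and -0.16 to 0.53 for Thbs1. Under HDM cKO against WT ranged from -0.43 to 0.011 for Fn1 and -0.68 to 0.60 for Timp3, and under PBS from -3.47 to 1.86 for Dcn, -2.21 to 2.15 for Eln and -0.26 to 0.43 for Thbs1. Interactions ranged from -0.13 to 0.33 for Fn1, -0.32 to 1.94 for Vim, -2.04 to 0.56 for Sparc, -5.10 to 0.24 for Dcn and -1.90 to 0.44 for Mgp. The cause of these changes was not tested, beyond the fewer genes or libraries that an alternative uses. Depth limits the low genes most: a count of 0 allows 1.96 to 4.88 normalized counts.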
